A study of Triticum aestivum with 14 samples.

Results

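Anther and ovary of the wheat (Triticum aestivum) floret each carried abundant transcripts annotated as defensin, and one gene of each organ is described here. TraesCS2B02G062100 was chosen by its high level in Anther and TraesCS1D02G052900 by its high level in Ovary, both bearing the description "Defensin" in the deposited table. They are 2 of 19 genes so described, among 100591 genes in the table. Because their FPKM values in Anther and Ovary (fragments scaled to the length of the gene model and the size of the library) chose them, those levels are given as a description without a test. The rule of choice did not use the 6 floret libraries, but it was made with earlier results of these data known.

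Transcripts were measured by bulk RNA-seq in 14 libraries, forming the groups F5 (n = 3), F1 (n = 3), Anther (n = 3), Ovary (n = 3) and Lemma (n = 2). All came from untreated central spikelets of material labelled N50, a label that is not explained, collected 21 days past the terminal spikelet stage, when spikelet number is fixed. The study compared a fertile with an abortive floret, and 3 organs of the fertile one with each other, but the labels do not say which of F1 and F5 was fertile. Nothing says that replicates came from separate plants, so p-values measure only the spread between these samples, which may be technical.

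Total counts ranged from 75016595 to 105526441 per library. Summed over the 2 genes whose name or description held an anther or pollen term, levels were 7.94 to 20.5 FPKM in Anther and at most 0.123 FPKM in any other library, although 1 of the 2 had no count in Anther. No name or description matched the ovary terms, so the Ovary label was checked with ontology text instead: summed over 10 genes with a carpel term, levels were 39.2 to 42.2 FPKM in F5, 82.0 to 100.2 FPKM in F1, 11.7 to 13.7 FPKM in Anther, 177 to 204 FPKM in Ovary and 27.1 to 28.6 FPKM in Lemma. Summed over 181 photosystem, chlorophyll a-b binding and Rubisco small subunit genes, Anther stood at 750 to 1044 FPKM, Ovary at 545 to 613 FPKM and Lemma at 53523 to 54355 FPKM. In bulk tissue, fewer cells of a type and less RNA per cell cannot be told apart.

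Plant defensins are small, secreted, cysteine-rich peptides whose fold is held by disulfide bridges. Many inhibit the growth of fungi by acting on their membranes, and they are part of the constitutive protection of seeds and flowers. Relatives of the family also act between cells in reproduction: defensin-like peptides attract pollen tubes to the ovule in Torenia, open the pollen tube tip in the maize embryo sac, and mark self pollen in Brassica.

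TraesCS2B02G062100 lies on chromosome 2B at positions 29706691 to 29707410 on the plus strand (a span of 720 bases), and TraesCS1D02G052900 on chromosome 1D at positions 33705560 to 33706322 on the plus strand (763 bases). The positions are those of the deposited table, whose wheat genome build is not given in the sources used here. Both genes are listed as protein-coding, and defense response is the sole ontology term of each.

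In Anther, TraesCS2B02G062100 had 206.8, 229.7 and 226.2 FPKM in replicates 1, 2 and 3, resting on 10490, 11890 and 14687 counts. In Ovary it had 0.0779, 0 and 0.0577 FPKM, from 6, 0 and 4 counts. Its Lemma libraries held 11 and 0 counts, or 0.163 and 0 FPKM in replicates 1 and 3. The gene was therefore abundant in every Anther library and close to the level of single reads in Ovary and Lemma. Its mean of 221 ± 12.3 FPKM (SD, n = 3) in Anther ranked 313 among all genes there. That mean was 4888 times the Ovary mean of 0.0452 ± 0.0404 FPKM (SD, n = 3) and 2713 times the Lemma mean of 0.0814 ± 0.115 FPKM (SD, n = 2), folds that rest on a handful of counts in the low organs.

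TraesCS1D02G052900 showed the opposite distribution between the organs. Its Ovary libraries had 152.7, 166.5 and 224.7 FPKM in replicates 1, 2 and 3, from 11863, 13467 and 14260 counts. Its Anther libraries had 0.0585, 0 and 0.123 FPKM, from 4, 0 and 10 counts. In Lemma replicates 1 and 3 it had 0.156 and 0.537 FPKM, from 12 and 42 counts. The Ovary mean of 181 ± 38.3 FPKM (SD, n = 3) ranked 229 among all genes in Ovary. It was 2993 times the Anther mean of 0.0606 ± 0.0616 FPKM (SD, n = 3) and 523 times the Lemma mean of 0.347 ± 0.269 FPKM (SD, n = 2). Counting error on the low values is wide: by the exact Poisson interval at 95%, which covers counting error only, 4 counts allow 1.09 to 10.2.

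**Figure D1:**
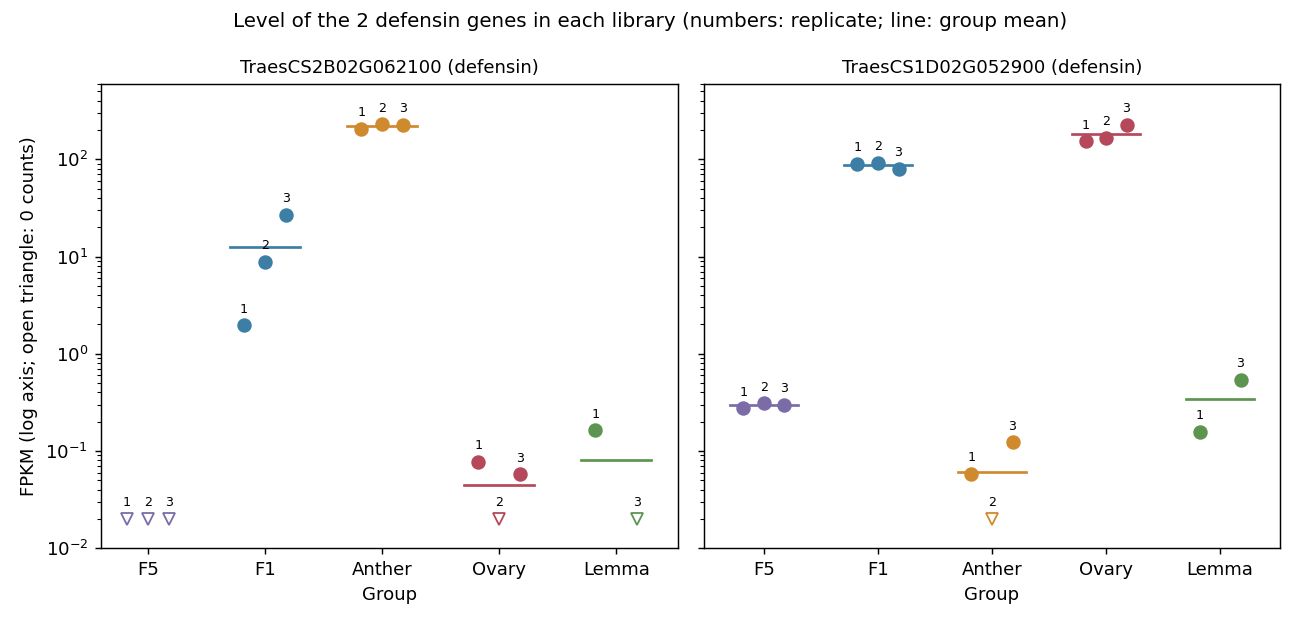
Level of TraesCS2B02G062100 (left) and TraesCS1D02G052900 (right) in FPKM on a log axis for each of the 14 libraries; points carry the replicate number, lines are group means and open triangles are libraries with 0 counts. The Anther libraries lie at 206.8 to 229.7 FPKM on the left, the Ovary libraries at 152.7 to 224.7 FPKM on the right, and F1 is spread widely on the left only.

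The florets, whose values the rule of choice did not use, separated both genes as well. TraesCS1D02G052900 had 0.276, 0.310 and 0.298 FPKM in F5 replicates 1, 2 and 3, against 90.4, 92.1 and 80.4 FPKM in F1 replicates 1, 2 and 3. No F5 library came near an F1 library. The gene was 243-fold lower in F5 (log2 fold change -7.92, SE 0.179, adjusted p = 6.68e-05, edgeR quasi-likelihood test with Benjamini-Hochberg adjustment over 70221 genes). The 72 counts in F5 together were few but evenly spread, at 23, 25 and 24 per library.

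TraesCS2B02G062100 had no count in any F5 library. In F1 it had 1.97, 8.81 and 27.0 FPKM in replicates 1, 2 and 3, from 101, 481 and 1439 counts. The groups did not overlap, but the F1 libraries differed widely among themselves, whereas the Anther libraries differed 1.11-fold. With 3 counts allowed over the F5 group, the gene was at least 900-fold lower in F5 than in F1 (adjusted p = 0.00951, same edgeR test). That bound rested mostly on F1 replicate 3: it was 390.0-fold without that library, 595 to 610-fold without 1 F5 library, and up to 1262-fold without F1 replicate 1. Both genes stayed past the threshold with any 1 floret library left out; the highest adjusted p was 0.0304, for TraesCS2B02G062100 without F1 replicate 2.

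The order of the 5 groups differed between the genes. For TraesCS2B02G062100 it ran Anther (221 FPKM), F1 (12.6 ± 12.9 FPKM, SD, n = 3), Lemma, Ovary and F5, where Lemma and Ovary did not differ beyond their spread and both had libraries at 0, as had all of F5. For TraesCS1D02G052900 it ran Ovary (181 FPKM), F1 (87.6 ± 6.31 FPKM, SD, n = 3), Lemma (0.347 FPKM), F5 (0.294 ± 0.0171 FPKM, SD, n = 3) and Anther, where Lemma and F5 did not differ beyond their spread.

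Relative to the organ in which each was abundant, the genes reached different levels in F1. TraesCS1D02G052900 in F1 stood at 49.9%, 50.8% and 44.3% of the Ovary mean in replicates 1, 2 and 3. TraesCS2B02G062100 in F1 stood at 0.890%, 3.99% and 12.2% of the Anther mean. Across F1 libraries the level differed 13.7-fold for TraesCS2B02G062100 and 1.15-fold for TraesCS1D02G052900. In F1 replicates 1, 2 and 3, the 22 genes with a pollen tube growth term summed to 112, 129 and 142 FPKM. The same list stood at 219 to 235 FPKM in Anther, 119 to 142 FPKM in Ovary and 107 to 109 FPKM in Lemma. On this list F1 thus lay below Anther and near Ovary and Lemma. Across the F1 replicates the green tissue list ran the other way, at 39853, 25199 and 17060 FPKM. The F5 libraries stood at 78.6 to 91.5 FPKM for the pollen tube growth genes and at 43034 to 48039 FPKM for the green tissue list, so that F5 and F1 did not overlap on either list, nor on the carpel terms. The part of these differences, between florets and between F1 libraries, in the floret results was not tested.

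The genes most like TraesCS2B02G062100 were found over all 14 libraries, F1 included. Likeness was measured as Pearson's r of log2(FPKM + 1), a description over libraries that share their tissue groups. Among described genes with at least 10 FPKM in some group, the closest 5 were the expansin gene TraesCS7D02G284000 (wall loosening), the profilin genes TraesCS1A02G343400 and TraesCS1B02G356700 (actin binding), and the peroxidase genes TraesCS4D02G268200 and TraesCS4B02G268900, all at r = 0.999. Such likeness was common, since 1246 of 22272 genes (5.59%) had r of at least 0.95. Their F1 levels entered that choice and are given as a description. In F1 these 5 genes stood at 0.401% to 0.871% of their Anther mean in replicate 1, at 2.08% to 4.74% in replicate 2 and at 6.05% to 9.57% in replicate 3. Expansin TraesCS7D02G284000, for one, had 1.58, 8.62 and 17.4 FPKM in F1 and no count in F5.

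TraesCS1D02G052900 had a different company. Its closest described gene was another defensin, TraesCS1A02G050700 on chromosome 1A (r = 0.999), which was also the closest of all 22272 genes. Whether these 2 defensin genes share near-identical sequence, and so reads, was not examined. The next 4 act on DNA: the replication protein A subunit genes TraesCS4B02G246900 (r = 0.994) and TraesCS4D02G246300 (r = 0.992), whose products bind single-stranded DNA, a DNA topoisomerase 2 gene, TraesCS1B02G271100 (r = 0.993), and a DNA helicase gene, TraesCS6D02G344100 (r = 0.993). In all 854 genes (3.83%) had r of at least 0.95. These 4 genes were far less abundant in Ovary, at 11.0 to 15.7 FPKM on average, and kept 60.7% to 77.2% of that mean in F1.

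**Figure D2:**
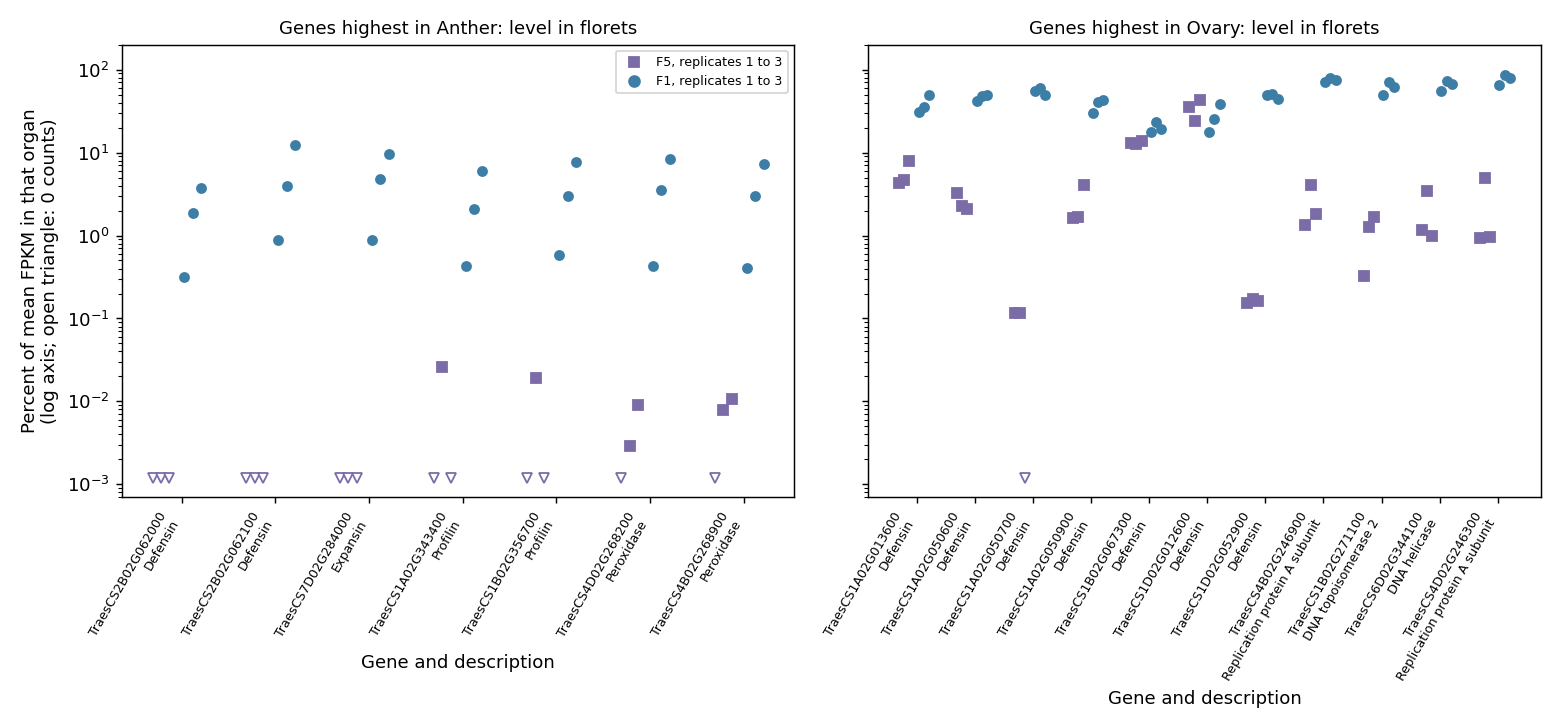
Level in each F5 library (squares) and F1 library (circles) as a percent of the mean FPKM in Anther (left panel) or Ovary (right panel), on a log axis, for defensin genes and the genes most like the 2 chosen ones; open triangles are libraries with 0 counts. In the left panel the F1 replicates run low to high in the same order for both defensins on 2B and for the 5 other genes, which were chosen partly by their F1 values; in the right panel 2 defensins, TraesCS1B02G067300 and TraesCS1D02G012600, keep over 10% of the Ovary mean in F5.

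The other 17 defensin genes are described by chromosome together with the 2 chosen ones. Of all 19, 9 lie on chromosomes 1A, 1B and 1D, 2 on 2B, and 8 elsewhere. On 1A, 1B and 1D, 7 of the 9 genes reached at least 1 FPKM, and each had its highest mean in Ovary. These 7 include TraesCS1D02G052900, which was chosen for that level. On 2B both genes had their highest mean in Anther, for which TraesCS2B02G062100 was chosen and TraesCS2B02G062000 was not. Among the 8 elsewhere, TraesCS4D02G321000 was the most abundant, at 8.90 ± 1.74 FPKM in Anther (SD, n = 3), and it was detected in every group. In total 9 defensin genes stayed under 1 FPKM in every group, 4 of them without a count in any library.

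Summed over the 19 genes, defensin transcripts reached 356 to 432 FPKM in Anther, 376 to 622 FPKM in Ovary and 4.16 to 6.59 FPKM in Lemma. TraesCS2B02G062100 made up 54.4% of that sum in Anther, and the neighbouring TraesCS2B02G062000 42.9%. TraesCS1D02G052900 made up 38.1% of it in Ovary, followed by TraesCS1A02G050900 with 22.4%, TraesCS1A02G050600 with 16.9% and TraesCS1A02G050700 with 14.5%. Among the genes described as defensin, Anther thus drew its signal from the pair on 2B, and Ovary from several genes on 1A and 1D. A description was present for 15248 of all genes (15.2%). Any defensin gene without one is missing from these sums and shares. The 9 genes on 1A, 1B and 1D together had 1.29 to 1.63 FPKM in Anther, and the 2 genes on 2B together 0 to 0.584 FPKM in Ovary.

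**Figure D3:**
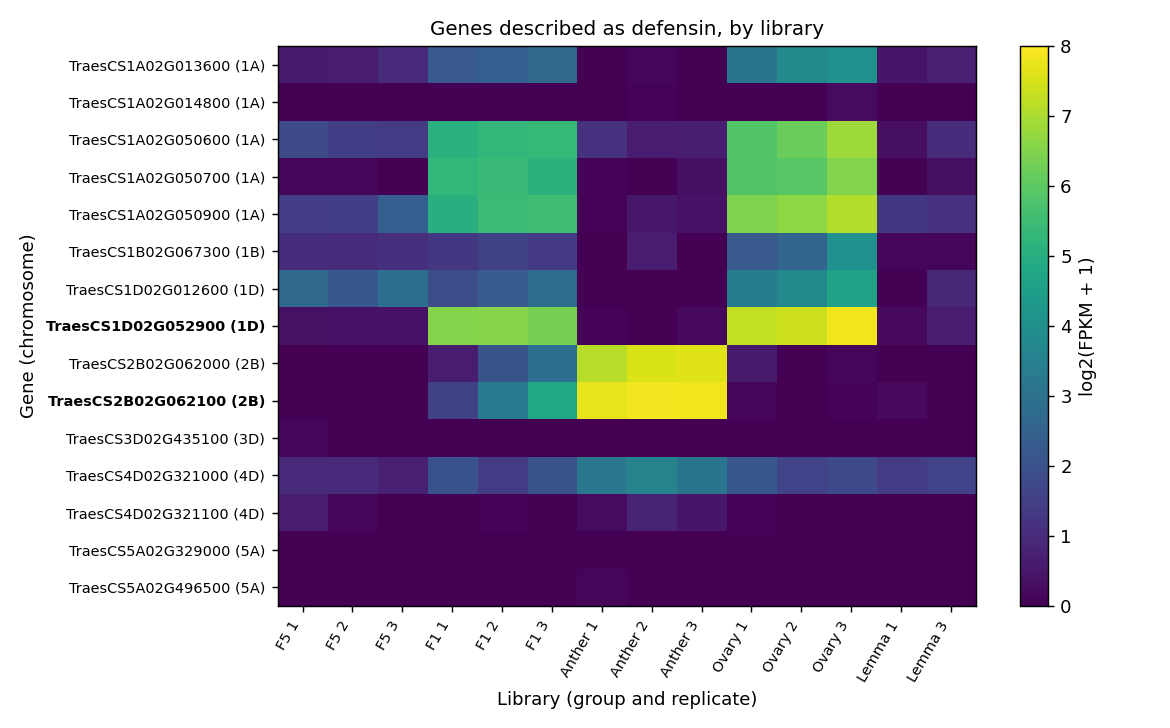
log2(FPKM + 1) of the 15 defensin genes with a count in some library (rows, with chromosome) in the 14 libraries (columns, by group and replicate); the 2 chosen genes are in bold. The pair on 2B is bright in Anther, and TraesCS1D02G052900, TraesCS1A02G050600, TraesCS1A02G050700 and TraesCS1A02G050900 are bright in Ovary and F1.

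TraesCS2B02G062000, the defensin gene 150 kb before TraesCS2B02G062100 (chromosome 2B, positions 29556274 to 29556647, plus strand), had 139.0, 187.1 and 196.1 FPKM in Anther replicates 1, 2 and 3. In Ovary it had 0.506, 0 and 0.0679 FPKM. It was higher in Anther than in Ovary (log2 fold change 10.03, SE 0.726, adjusted p = 3.67e-05, edgeR; 12.26 without Ovary replicate 1 and 9.40 without Ovary replicate 2). It was at least 3133-fold higher in Anther than in Lemma, where it had no count, a bound of 1550 to 1582-fold without 1 Lemma library. Its F1 libraries held 12, 72 and 141 counts, the same order as for TraesCS2B02G062100, and its F5 libraries none, so that it was at least 100.2-fold lower in F5 than in F1 (adjusted p = 0.0145). Without F1 replicate 3 the bound was 56.3-fold, and without 1 F5 library 66.3 to 67.9-fold. Whether the 2 genes share near-identical sequence was not examined, and how the counting treated reads shared between genes is not known.

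Of the 3 nearest genes on each side of TraesCS2B02G062100, TraesCS2B02G062000 alone was above 1 FPKM in Anther. A 5S ribosomal RNA gene, at 93.5 kb from TraesCS2B02G062100, and TraesCS2B02G061900, at 151 kb, had no count in Anther. The 3 genes after it (TraesCS2B02G062200, TraesCS2B02G062400 and TraesCS2B02G062500, at 13.7, 45.4 and 52.3 kb) averaged 0 to 0.813 FPKM in Anther.

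On 1D, the nearest gene after TraesCS1D02G052900, at 5.65 kb, is TraesCS1D02G053000 (positions 33711972 to 33712886, plus strand), without a name or description but with ontology terms for defense response, extracellular space and cadmium ion binding. It had 77.9, 89.0 and 114.8 FPKM in Ovary replicates 1, 2 and 3, against 0.0744, 0.233 and 0.444 FPKM in Anther (log2 fold change of Anther over Ovary -8.07, SE 0.641, adjusted p = 2.57e-05, edgeR; -8.83 without Anther replicate 3). In F5 it had 9.46, 6.44 and 11.9 FPKM, against 43.3, 43.5 and 45.8 FPKM in F1 (log2 fold change -1.98, SE 0.241, adjusted p = 0.002). TraesCS1D02G053000 thus remained measurable in every F5 library. The nearest gene before, TraesCS1D02G052800 at 41.3 kb, likewise carries a defense response term and was low, at 3.26 ± 1.30 FPKM in Ovary (SD, n = 3) with no count in Anther. In F1 replicates 1, 2 and 3 TraesCS1D02G052800 had 1.72, 2.79 and 3.00 FPKM, against 0 FPKM in every F5 library (adjusted p = 0.00273, edgeR). Being at 0 in F5, that gene passed the filter by F1 alone and could only be called lower. A SWEET sugar transporter gene, TraesCS1D02G052700, at 64.8 kb, averaged 0.822 ± 0.277 FPKM in Ovary (SD, n = 3), and 4.87 ± 0.939 FPKM in F5 and 3.33 ± 0.862 FPKM in F1 (log2 fold change 0.82, adjusted p = 0.0316, under the 2-fold needed for a call). TraesCS1D02G053300, at 911 kb and without a name or description, was higher in F5, at 25.2 ± 5.55 FPKM in F5 and 8.73 ± 0.722 FPKM in F1 (SD, n = 3 each; log2 fold change 1.80, SE 0.194, adjusted p = 0.00134), and averaged 9.74 ± 1.57 FPKM in Ovary. The remaining neighbours, TraesCS1D02G052600 and TraesCS1D02G053100, averaged 1.33 ± 0.140 and 0.0294 ± 0.0384 FPKM in Ovary.

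**Figure D4:**
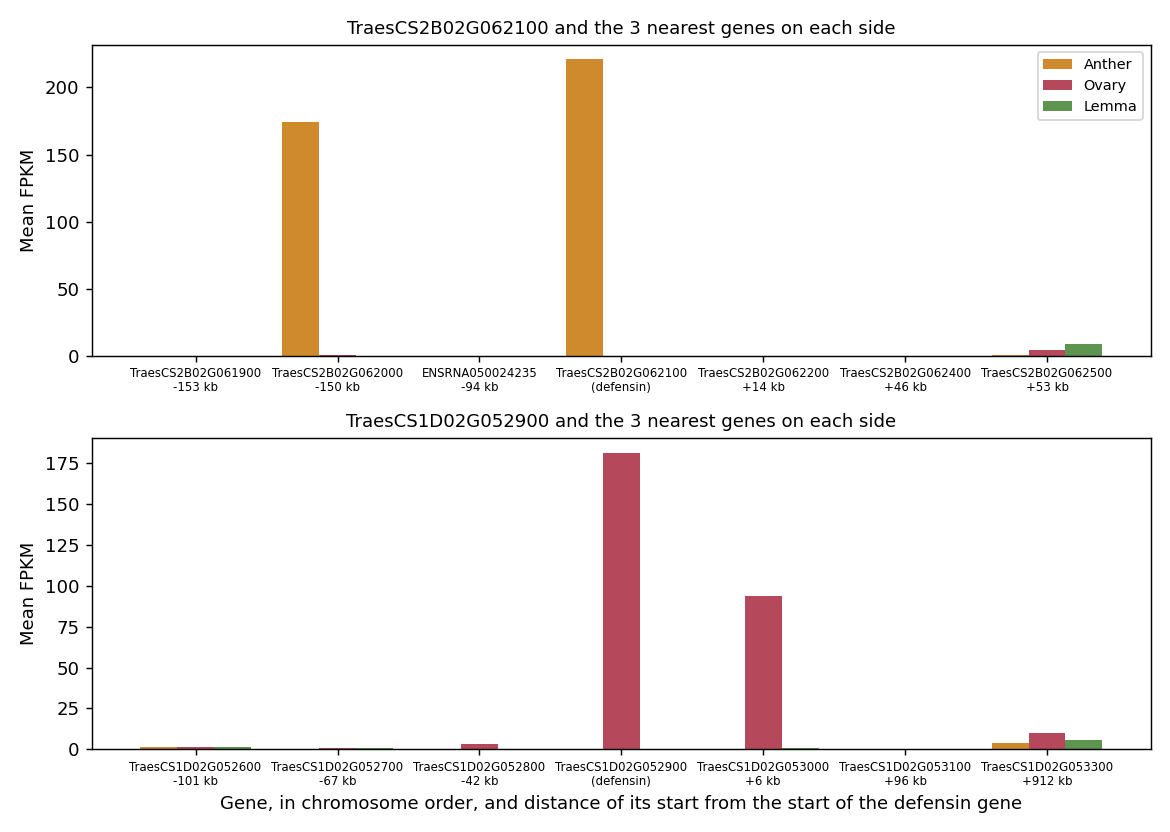
Mean FPKM in Anther, Ovary and Lemma of TraesCS2B02G062100 (top), TraesCS1D02G052900 (bottom) and the 3 nearest genes on each side, in chromosome order with the distance between start positions in kb. A second tall Anther bar stands at TraesCS2B02G062000 (174 FPKM) and a second tall Ovary bar at TraesCS1D02G053000 (93.9 FPKM).

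On chromosome 1A, 3 defensin genes within one stretch resembled TraesCS1D02G052900. TraesCS1A02G050700 (positions 32302130 to 32302932, plus strand), 10.0 kb after TraesCS1A02G050600 and 151 kb before TraesCS1A02G050900, had 55.9, 59.7 and 91.4 FPKM in Ovary, against 0.0300 and 0.224 FPKM in Lemma (log2 fold change 8.36, SE 0.918, adjusted p = 0.000156, edgeR; 7.60 without Lemma replicate 1 and 10.17 without Lemma replicate 3). TraesCS1A02G050600 averaged 80.6 ± 29.5 FPKM and TraesCS1A02G050900 107 ± 25.7 FPKM in Ovary (SD, n = 3). In each of the 7 defensin genes of 1A, 1B and 1D above 1 FPKM, Ovary replicate 3 was the highest Ovary library. The same held for the replication protein A, topoisomerase and helicase genes named above and for TraesCS1D02G053000, so it was not particular to defensins.

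By edgeR, 9 of these 17 other defensin genes passed the filter on low counts in the organ fit, which keeps a gene that is high in a single organ. In Anther against Ovary all 9 passed the threshold (3 higher and 6 lower, median log2 fold change -6.30). Of 76348 genes tested 43.5% were called, 21.9% higher and 21.7% lower, and their median was -0.03. Because the filter keeps genes high in a single organ, it favours such calls. With no count filter 8 of 12 were called, 2 higher and 6 lower. That fit tested 89736 genes, and the share of them called was smaller than 43.5%. Of the 9 genes, 3 were higher and 3 lower in Anther against Lemma, with 51.9% of all genes called, 25.2% higher and 26.7% lower. In Ovary against Lemma 6 of the 9 were called, all higher, with 42.7% of all genes called and 20.4% called higher. TraesCS1D02G012600, with no count in Anther and 9.49, 12.5 and 23.6 FPKM in Ovary, was at least 967-fold lower in Anther than in Ovary (adjusted p = 0.00286), a bound of 596-fold without Anther replicate 3. Its lower call in Anther against Lemma (adjusted p = 0.0377) rested on the 0.814 FPKM of Lemma replicate 3, without which the fitted log2 fold change was 0.0, and was lost without any 1 Anther library or without Ovary replicate 1 or 2. Its higher call in Ovary against Lemma (adjusted p = 0.0282) was lost without Ovary replicate 2 (0.0594) or 3 (0.0561).

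In F5 against F1, 10 of the 19 defensin genes passed the filter and 8 of them were called, each lower in F5. Of all 70221 genes tested 24.1% were called, 13.7% lower and 10.4% higher. The median log2 fold change of the 10 defensin genes was -3.80, against -0.05 for all genes. Without the 2 chosen genes, 6 of 8 were called, all lower, at a median of -3.08. With no count filter 8 of 12 defensin genes were called, all lower. That fit tested 88258 genes, and the shares of them called and called lower were smaller than 24.1% and 13.7%. The 2 genes on 2B had no count in F5 and passed the filter by F1 alone, so they could only be called lower. TraesCS1A02G050700, with 8, 7 and 0 counts in F5 replicates 1, 2 and 3, likewise passed by its F1 counts, which favoured a lower call. The green tissue, pollen tube growth and carpel lists separated F5 from F1 as well, at the values given above, and their part in these calls was not tested. The sizes differed widely among genes that shared a high level in Ovary. TraesCS1A02G050700 averaged 0.0539 ± 0.0467 FPKM in F5 and 37.9 ± 3.51 FPKM in F1 (SD, n = 3 each; log2 fold change -9.05, SE 0.583, adjusted p = 0.000358). Its neighbours were lower in F5 by less: TraesCS1A02G050600 averaged 2.02 ± 0.492 FPKM in F5 and 37.3 ± 3.18 FPKM in F1 (log2 fold change -3.93, SE 0.207, adjusted p = 0.000238), and TraesCS1A02G050900 2.61 ± 1.46 FPKM in F5 and 40.4 ± 7.37 FPKM in F1 (log2 fold change -3.67, SE 0.415, adjusted p = 0.0016). Whether these folds differ between genes was not tested.

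The 2 tested defensin genes that were not called lie on chromosomes 1B and 1D. TraesCS1D02G012600 had 5.44, 3.63 and 6.48 FPKM in F5, against 2.71, 3.90 and 5.92 FPKM in F1, and the groups overlapped (log2 fold change 0.60, SE 0.342, adjusted p = 0.216). TraesCS1B02G067300 had 1.06, 1.02 and 1.11 FPKM in F5, against 1.44, 1.91 and 1.57 FPKM in F1 (log2 fold change -0.36, SE 0.293, adjusted p = 0.381). Neither p shows that the levels were the same. TraesCS1D02G012600 lies 27200 kb from TraesCS1D02G052900 on the same chromosome.

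**Figure D5:**
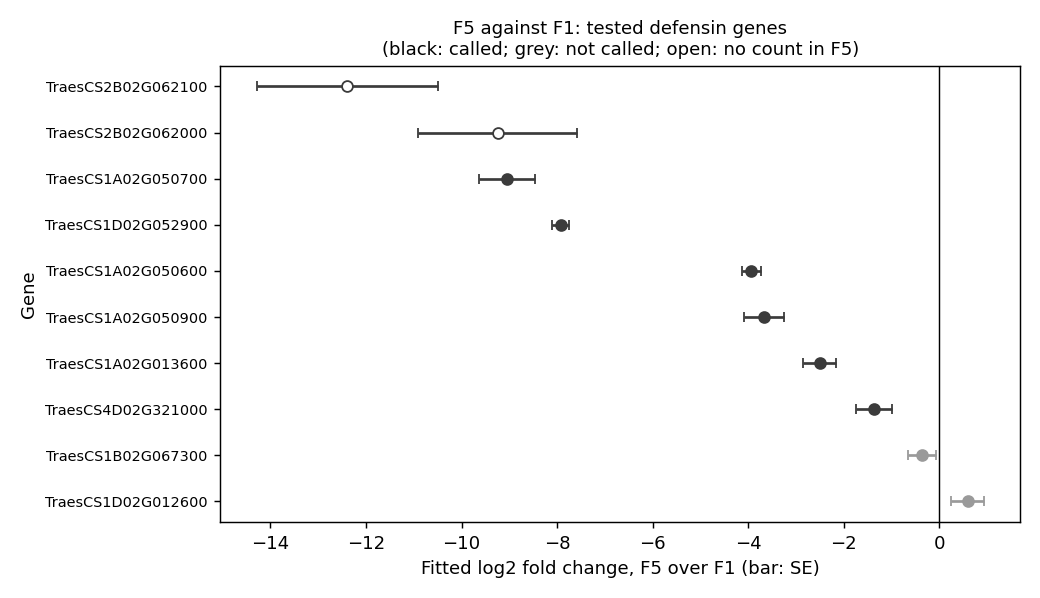
Fitted log2 fold change of F5 over F1, with its SE, for the 10 defensin genes tested; black points were called, grey points were not, and open points had no count in F5, so that their fitted value depends on the prior count of the fit. The 2 grey genes, TraesCS1B02G067300 and TraesCS1D02G012600, sit at -0.36 and 0.60.

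Other antimicrobial protein families were set beside the defensins from 10 lists of names and descriptions. Chitinases, which cleave fungal cell wall chitin, numbered 7: 5 were lower in F5 than in F1, where 13.7% of all genes were called lower, and 5 were lower in Anther than in Ovary, where 21.7% of all genes were. In 1 fit over all 14 libraries 2 of the 7 were lower in F5, so the count of 5 depended on the fit. That fit tested 79955 genes, and the share of them called lower was smaller than 2 of 7. The difference between these shares was not tested. In Ovary against Lemma 3 of the 7 were higher and 2 lower, where 20.4% and 22.4% of all genes were. Chitinase 2 (TraesCS2D02G033100) averaged 4.15 ± 1.14 FPKM in Anther and 124 ± 1.16 FPKM in Ovary (SD, n = 3 each), yet had 37.9 ± 6.42 FPKM in F5 and 44.3 ± 9.78 FPKM in F1 (log2 fold change 0.04, adjusted p = 0.88, edgeR). The chitinase gene TraesCS3B02G293200 averaged 10.0 ± 2.26 FPKM in F5 and 39.0 ± 6.53 FPKM in F1 (SD, n = 3 each; log2 fold change -1.69, adjusted p = 0.00159).

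Among beta-1,3-glucanases, which cut glucan in fungal walls and callose in the plant, 2 of 7 tested genes were lower in F5 than in F1 (1 without F5 replicate 1 or 3, and 0 with limma on log2(FPKM + 1)), where 13.7% of all genes were called lower, and 3 of 10 were higher in Anther than in Ovary, where 21.9% of all genes were called higher. The endo-beta-1,3-glucanase gene TraesCS3B02G528400 averaged 149 ± 1.51 FPKM in Anther and 0.0838 ± 0.129 FPKM in Ovary (SD, n = 3 each). It had no count in F5 and 5.48 ± 5.67 FPKM in F1 (adjusted p = 0.0209, edgeR), with an SD above the mean in F1, as for TraesCS2B02G062100. Having no count in F5, the gene passed the filter by F1 alone and could only be called lower. The call was lost without F1 replicate 2 (adjusted p = 0.055) or any 1 F5 library (up to 0.0558).

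Of 3 thaumatin-like, 4 pathogenesis-related protein 1 and 3 wheatwin genes tested in F5 against F1, edgeR called 0, where 24.1% of all genes were called. An unadjusted p under 0.05 was reached by 0 of them, against 32571 of 70221 genes. DESeq2 called 0 and limma on log2(FPKM + 1) 0. The lack of a call does not show that their levels were the same. Limma on log2(FPKM + 0.1) called 1 pathogenesis-related protein 1 gene lower in F5, and edgeR without F1 replicate 1 called 2 of them higher. Wheatwin-1 (TraesCS3A02G517100), an antifungal barwin-type protein, averaged 0.445 ± 0.230 FPKM in Anther and 19.6 ± 6.15 FPKM in Ovary (SD, n = 3 each).

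Of 4 thionin genes, TraesCS1D02G405700 (alpha-2-purothionin, a membrane-active seed peptide) was the one tested in F5 against F1, at 3.01 ± 0.268 FPKM in F5 and 0.0154 ± 0.0266 FPKM in F1 (SD, n = 3 each; log2 fold change 7.70, adjusted p = 0.00206, edgeR). All of its counts in F1 lay in replicate 1, without which 2 thionin genes were called. It passed the filter by its F5 counts, which favoured a higher call. Among 74 protease inhibitor genes 21 were tested in F5 against F1, 2 higher and 3 lower, near the 24.1% called of all genes (2 or 3 called in all without F1 replicate 2, F1 replicate 3 or any F5 library). Among 68 ribosome-inactivating protein genes 21 were tested, 1 higher and 8 lower, where 10.4% and 13.7% of all genes were (5 called in all without F1 replicate 3). No puroindoline or grain softness gene passed the filter, and no name or description matched the snakin terms.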

How the data were processed

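Per the labels' protocols, RNA was extracted with Trizol and libraries followed standard Illumina protocols. The deposited table gave the authors' raw counts per gene and the authors' FPKM values, which are scaled to gene length and library size. The submitters' processing notes name Bowtie 0.12.2 and the build mm8, a mouse build, so for wheat the aligner, build, annotation and handling of shared or antisense reads count as not given.

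Counts were scaled by TMM, filtered with filterByExpr and fitted with edgeR 4.0.16 (robust quasi-likelihood, R 4.3.3), F5 and F1 by themselves and the 3 organs in 1 fit. Calls needed a difference of 2-fold or more and a two-sided p, adjusted by Benjamini-Hochberg, under 0.05; SE is the log2 fold change divided by the root of F. Where a group had no count, folds were bounded with 3 counts over the group. Alternatives used limma 3.58.1 and DESeq2 1.42.0. The fits were tested on simulated counts with few genes changed. There edgeR found 3 of 100 changes of 2-fold and 61 of 100 of 4-fold in F5 against F1, so a gene not called may still differ.

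The members and lists were chosen with earlier results of these data known. The naming rule took the 2 genes, other defensins with at least 10 FPKM in a group, the 5 most alike described genes, 3 neighbours on each side and 2 genes per antimicrobial list; TraesCS1B02G067300 and TraesCS4D02G321000, under 10 FPKM, were named after their values were seen. The 2 ontology marker lists were added after the annotation text was seen. A wider ontology list of undescribed genes held 0 genes. Same-numbered floret libraries deviated together at correlations from -0.182 to 0.053, so numbers were not taken to pair samples.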

Additional observations from a re-analysis of the deposited data

How the results depend on the processing

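In F5 against F1 both chosen genes kept their direction and call under all 13 alternatives. The log2 fold change of TraesCS2B02G062100 ranged from -12.92 to -11.23 with 1 floret library left out and was -3.22 with limma on log2(FPKM + 1); that of TraesCS1D02G052900 ranged from -8.01 to -7.85 and was -6.09. The count of defensin genes called there was 7 or 8 throughout. With the replicate number as a block the values were -12.34 and -7.92 and 7 genes were called; in the organs 8, 4 and 5 genes were called with the block in Anther against Ovary, Anther against Lemma and Ovary against Lemma, against 9, 6 and 6 without. Calls over all genes were also fewer with the block than without, in F5 against F1 and in Anther against Ovary. Only 1 of 6 floret libraries correlated best with its own number.

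In Anther against Lemma 2 defensin genes were called with limma on log2(FPKM + 1), and 4 to 6 with 1 organ library left out. Single genes changed sign there only at low levels when 1 library was left out: TraesCS1A02G050600 ranged from -0.62 to 1.55, TraesCS1A02G050700 from -2.31 to 1.30, and TraesCS1D02G012600 from -9.26 to 0.0, the last without Lemma replicate 3. In Ovary against Lemma the defensin median was 5.14, or 4.56 with genes at 0 set to their bound.

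The log2 ratio of Anther to Ovary for TraesCS2B02G062100 (12.25) was 12.45 on median-of-ratios-scaled CPM, 7.73 on log2(FPKM + 1) and 11.67 to 12.90 with 1 library left out, moving most without Ovary replicate 1 or 2. The ratio of Ovary to Anther for TraesCS1D02G052900 (11.55) was 11.03 on TMM-scaled CPM, 10.92 on median-of-ratios-scaled CPM, 7.41 on log2(FPKM + 1) and 10.96 to 12.60 with 1 library left out, moving most without Anther replicate 2 or 3. These ratios rest on 10 and 14 counts in the low organ. On log2(FPKM + 1), without TMM, the median of all genes shifted to -0.15 in F5 against F1 and to 0.214 in Ovary against Lemma. All genes called then numbered 9181 in F5 against F1 (16958 by edgeR), 20218 in Anther against Ovary (33222) and 23871 in Anther against Lemma (39589); the cause was not tested. Values with 1 library left out for the bounds and for genes outside the defensin list were chosen after seeing the data. With a Lemma library left out, the lone Lemma library is assumed to vary like the other groups.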
